A study of Mus musculus with 6 samples.

Results

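Fatty acid oxidation and peroxisome genes were examined in lineage-labeled alveolar type 2 (AT2) cells, the surfactant-producing cells of the lung that also act as alveolar stem cells. The group was given as a list of 38 gene symbols, and all 38 were found among the 24421 genes of the deposited count table. AT2CTRL cells were heterozygous for *Sftpc-CreERT2* and *R26-tdTomato* and lacked the *R26-caBmpr1a* allele. AT2CAB cells carried *Sftpc-CreERT2*, *R26-tdTomato* and *R26-caBmpr1a*, and the last encodes a constitutively active form of the BMP receptor BMPR1a. Both *R26* alleles are silent until Cre, driven from the *Sftpc* locus and released by tamoxifen, removes a stop cassette. The cells were sorted on the lineage label, so a labeled cell need not have switched on the receptor. Each group was 3 libraries of poly(A) RNA, of which 1 was of 16 weeks of age and the other 2 of 12 weeks. Whether each library was a separate mouse is not stated in the labels, so p-values measure the spread between libraries.

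Fatty acids are taken up with the help of CD36, activated to acyl-CoA, and carried into mitochondria as acylcarnitines, where a cycle of 4 reactions removes acetyl units and passes electrons to the respiratory chain. Peroxisomes run a separate cycle that starts with an acyl-CoA oxidase and handles very long and branched chains, and they import their enzymes through peroxins such as PEX5 and PEX7. AT2 cells are rich in lipid and in small peroxisomes, and many genes of both cycles are known targets of the nuclear receptor PPARα.

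Libraries held from 21554249 to 28440227 counts, and values are given as CPM (reads relative to the library total, after TMM scaling), or as CPM per kilobase of exon (RPKM) where genes are compared with each other. *Id1* and *Id3*, direct BMP targets, were higher in each AT2CAB library than in every AT2CTRL library (log2 fold changes 3.61 and 4.58, adjusted p = 0.0172 and 0.00758 in edgeR), and reads on *Bmpr1a* itself were level (-0.015). AT2 markers were present throughout (10 markers together between 117532 and 132649 CPM in AT2CTRL and between 100315 and 112240 CPM in AT2CAB). AT2CTRL replicate 1 and AT2CAB replicate 3 stood apart by reads on 4 Y-linked genes (176 and 146 CPM, against 0 in the other 4 libraries), so log2 fold changes without these 2 libraries are also given for the members described by library.

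The promoters of 4 members are printed here, *Cd36*, *Acoxl* and *Scp2* at lower levels in AT2CAB and *Pex11a* at higher levels. Each is the 250 bases before the RefSeq start (build GRCm38.p6, the coordinates of mm10), 5′ to 3′ on the gene's strand. Capitals mark AGGTCA on either strand, the half-site of the element that PPAR and RXR bind.
Cd36, chr5:17835897-17836146, reverse strand: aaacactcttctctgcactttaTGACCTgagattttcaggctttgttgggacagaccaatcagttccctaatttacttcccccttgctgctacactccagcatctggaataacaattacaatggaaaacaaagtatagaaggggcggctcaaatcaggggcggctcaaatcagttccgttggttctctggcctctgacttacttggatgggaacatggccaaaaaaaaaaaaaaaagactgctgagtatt
Acoxl, chr2:127854378-127854627, forward strand: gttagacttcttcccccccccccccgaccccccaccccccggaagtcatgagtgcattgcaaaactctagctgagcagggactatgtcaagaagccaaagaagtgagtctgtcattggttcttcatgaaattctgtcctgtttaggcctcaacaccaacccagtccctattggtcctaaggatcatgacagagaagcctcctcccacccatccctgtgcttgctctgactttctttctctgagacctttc
Scp2, chr4:108118548-108118797, reverse strand: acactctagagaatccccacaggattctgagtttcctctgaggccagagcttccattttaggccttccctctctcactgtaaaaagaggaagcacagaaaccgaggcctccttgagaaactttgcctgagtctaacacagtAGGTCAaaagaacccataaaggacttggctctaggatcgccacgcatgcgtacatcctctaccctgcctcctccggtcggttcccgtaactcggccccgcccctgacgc
Pex11a, chr7:79743132-79743381, reverse strand: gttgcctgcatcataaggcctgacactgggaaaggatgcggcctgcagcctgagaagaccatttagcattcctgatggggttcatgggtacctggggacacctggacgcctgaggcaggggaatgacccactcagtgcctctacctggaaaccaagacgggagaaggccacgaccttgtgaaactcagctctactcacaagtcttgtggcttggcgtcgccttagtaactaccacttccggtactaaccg
*Cd36* and *Scp2* each held 1 half-site in this window, and *Acoxl* and *Pex11a* held none. The *Cd36* start in RefSeq lies 53063 bases inside the longest gene model of the count table, so it is 1 of several starts, and the *Pex11a* start lies 106 bases before that of the table. Of the 33 members with a RefSeq window (250 bases before to 50 after the start), 5 or 15.2% held AGGTCA, against 18.1% of 27025 genes. The full direct repeat, AGGTCA followed after 1 base of any kind by AGGTCA, was in 0 of the 33 and in 0.0481% of all, and GGCGCC, a sequence bound by SMAD1 and SMAD5, was in 3 (9.09%, against 13.4%). The windows of *Hadha* and *Hadhb*, the 2 subunits of the mitochondrial trifunctional protein, overlapped by 228 bases, since the genes start 273 bases apart on opposite strands.

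In AT2CTRL cells the highest level per kilobase was that of *Cd36*, with 413 RPKM. *Acoxl*, an acyl-CoA oxidase-like gene, followed with 227 RPKM, far above its relatives *Acox3* (11.4 RPKM) and *Acox2* (0.292 RPKM). *Acot1*, *Scp2* and *Abcd3* came next, with 184, 174 and 173 RPKM. *Etfb* (129 RPKM), *Acaa1a* (126 RPKM) and *Acaa2* (119.9 RPKM) followed. At the other end were *Pdk4* (2.86 RPKM), *Ppargc1a* (2.25 RPKM) and, lower still, *Acox2*. The muscle carnitine palmitoyltransferase *Cpt1b* had the fewest reads counted, from 1 to 7 per library. It was the 1 member that did not pass the expression filter. Its exons overlap those of the read-through gene *ChkbCpt1b* over 94.8% of their length, and reads on overlapping genes were not counted, so its level is not known from this table. The liver form *Cpt1a* had 31.7 RPKM in AT2CTRL cells.

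**Figure D1:**
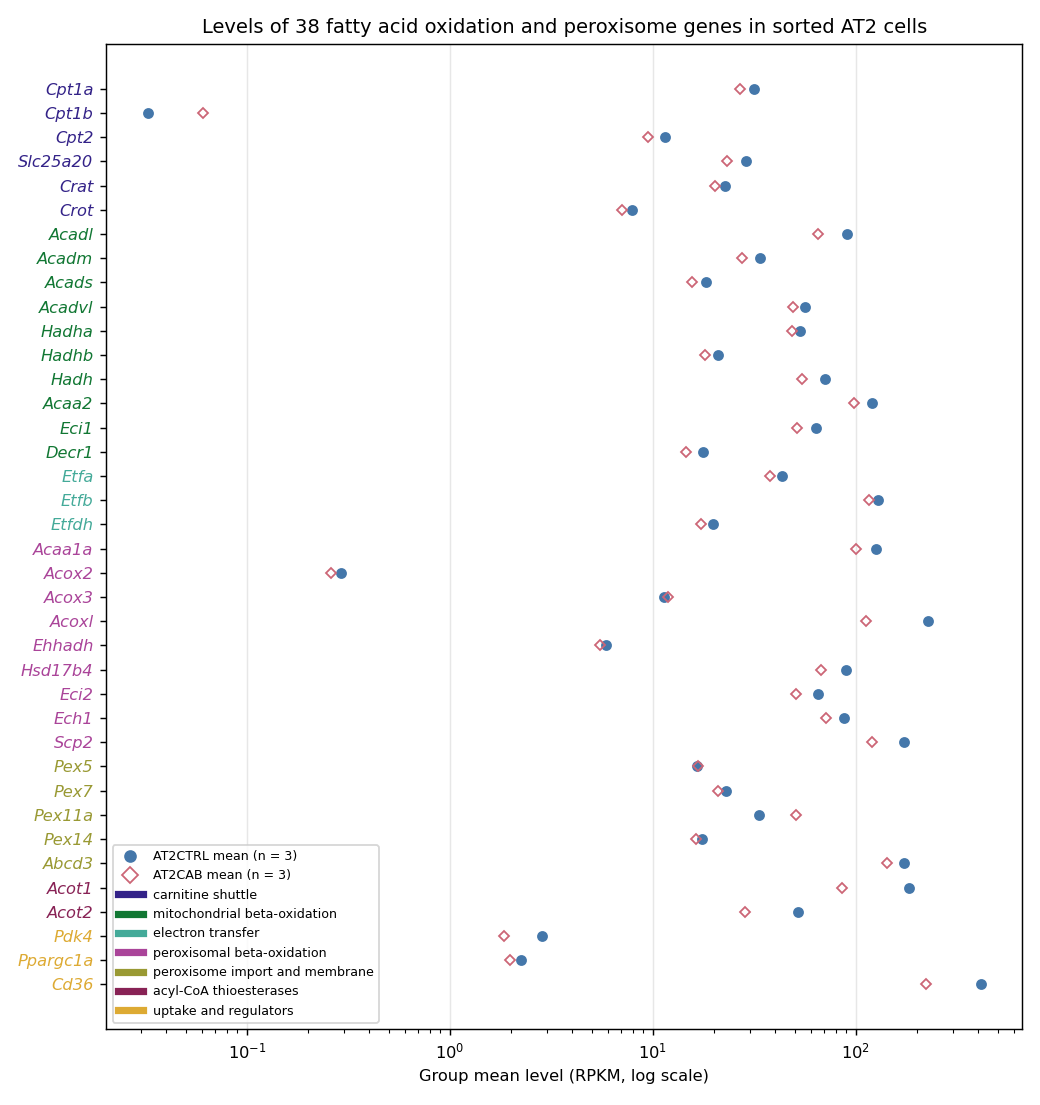
Mean level of each of the 38 genes in RPKM (log scale) in AT2CTRL (filled circles) and AT2CAB (open diamonds), n = 3 libraries each, with gene names colored by role. *Cd36* is highest, with 413 RPKM in AT2CTRL and 223 RPKM in AT2CAB. *Cpt1b*, whose exons mostly overlap another gene, has the lowest counted value, and its true level is not known.

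To see whether active BMPR1a altered this program, AT2CAB was compared with AT2CTRL across the 16723 genes that passed the filter, 37 members among them. No member reached an adjusted p under 0.05 in edgeR's quasi-likelihood test (0 of 37, lowest adjusted p = 0.198), against 0.239% of all genes on the higher and 0.012% on the lower side, or 0.227% and 0.012% when a difference over 2-fold was also asked for. DESeq2 gave 2 members with an adjusted p under 0.05, *Cd36* and *Acoxl*, neither over 2-fold, and limma-voom gave 0. The members' values nevertheless leaned to one side. The log2 fold change was below 0 for 34 of 37 (background 51.2%) and above 0 for 3 (background 48.8%), with a median of -0.28 against -0.0096 for all genes. Unadjusted p-values under 0.05 belonged to 9 members on the lower side (24.3%, against 5.05% of all genes) and to 1 on the higher side (against 4.62%). For 12 members (32.4%) every AT2CAB value lay below every AT2CTRL value, against 10.1% of all genes, and for 1 every value lay above, against 7.0%. Members were picked by function with earlier results of these data known, not drawn at random, so these counts are a description. In sorted cells measured in bulk, fewer AT2 cells cannot be told apart from less RNA of a gene per AT2 cell. For any one gene, 3 values against 3 allow no two-sided p under 0.1 in an exact permutation test.

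The counts changed with the scaling and with single libraries. With library size as the only scaling, which moved the median of all genes to 0.12, 30 of 37 members were below 0 (background 31.0%) with a median of -0.15, and 5 were lower at an unadjusted p under 0.05 (background 1.91%). The gap between the median of the members and that of all genes was -0.27 in both cases. Without AT2CTRL replicate 3, 16 members were lower at an unadjusted p under 0.05 (background 3.17%). There were 4 without AT2CTRL replicate 2 (3.14%), 5 without AT2CAB replicate 2 (2.17%) and 4 without AT2CAB replicate 3 (2.92%). From 32 to 35 members were below 0 with each library left out. In the 4 libraries without Y-linked reads, 32 of 37 were below 0, the median was -0.11 against 0.017 for all genes, and 7 were lower at an unadjusted p under 0.05 (background 7.28%).

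**Figure D2:**
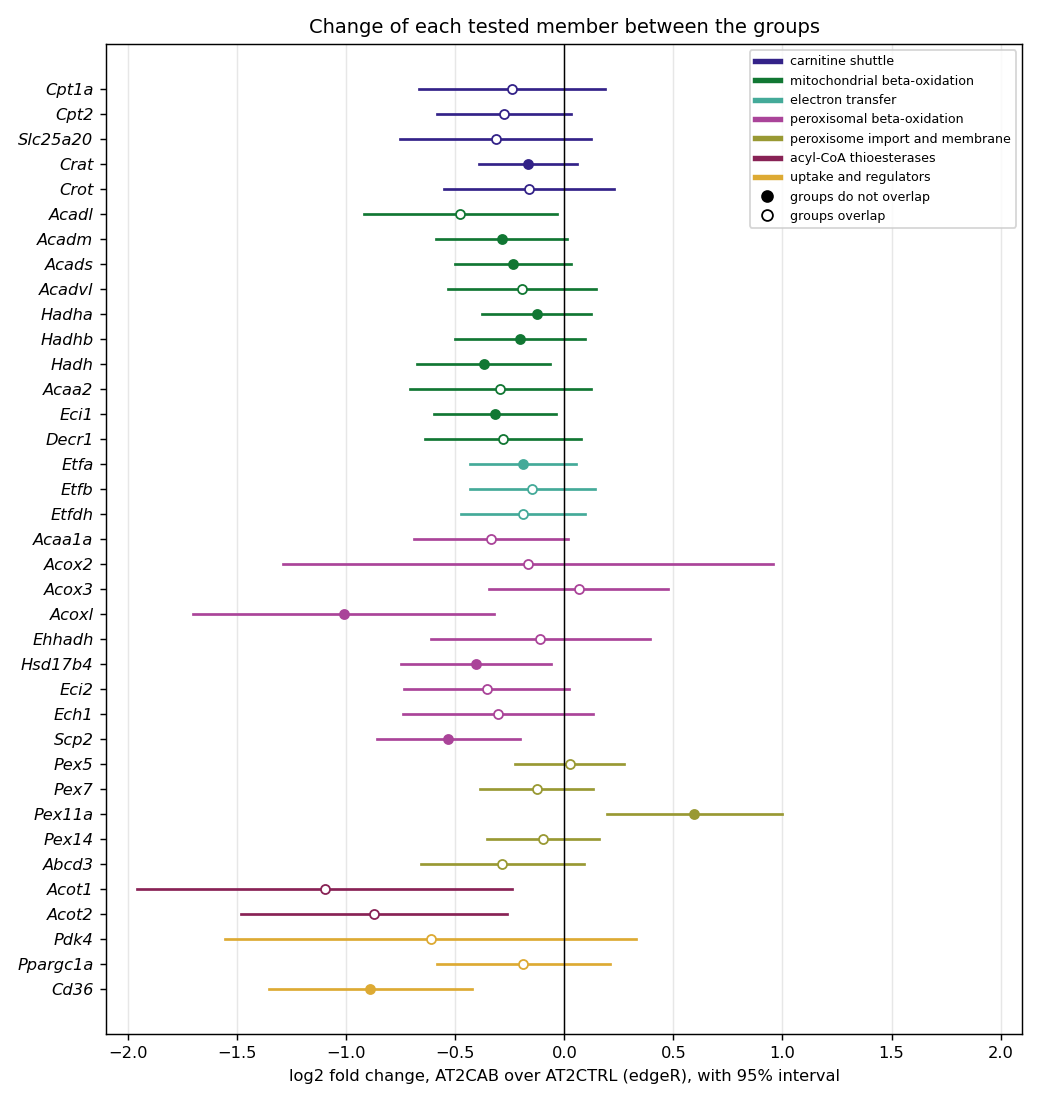
The log2 fold change of AT2CAB over AT2CTRL for the 37 tested members with its 95% interval from edgeR, colored by role, filled where the 3 values of each group do not overlap. 34 of the 37 points lie left of 0, and *Pex11a* (0.59) lies farthest to the right.

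*Cd36*, the fatty acid translocase of the plasma membrane, on chromosome 5 of mm10 from 17781690 to 17888959, showed the lowest p of the members. *Cd36* had 1605, 1655 and 1608 CPM in the AT2CTRL libraries and 1119, 866 and 642 CPM in the AT2CAB libraries. The 3 AT2CTRL values were nearly equal and the groups did not overlap. Averages were 1623 ± 28.3 and 876 ± 238 CPM (SD, n = 3), and the log2 fold change was -0.89 (95% interval -1.36 to -0.42, adjusted p = 0.198 in edgeR). DESeq2 gave an adjusted p of 0.00315 and a log2 fold change of -0.88. Without the 2 libraries with Y-linked reads the log2 fold change was -0.69 (adjusted p = 0.0639 in edgeR). *Cd36* is also a gene of capillary endothelium and macrophages. The sum of 10 endothelial markers ranged from 274 to 572 CPM in AT2CTRL and from 495 to 814 CPM in AT2CAB. The log2 fold change was positive for 10 of 10 (48.8% of all genes), and the groups overlapped for 9. The sum of 13 leukocyte markers ranged from 141 to 174 CPM and from 98.0 to 279 CPM. Their median log2 fold change was 0.73, and 11 of 13 were positive (48.8% of all genes). The part of these cells in the *Cd36* reads was not tested.

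*Acoxl* lies on chromosome 2 of mm10 from 127854628 to 128123892 and is known as a gene enriched in AT2 cells. *Acoxl* had 589, 689 and 669 CPM in the AT2CTRL libraries and 462, 327 and 177 CPM in the AT2CAB libraries. All 3 AT2CAB values were lower, but they spread more than 2-fold among themselves. Averages were 649 ± 52.7 and 322 ± 142 CPM (SD, n = 3), and edgeR gave a log2 fold change of -1.01 with an adjusted p of 0.347 (standard error 0.30). DESeq2 gave an adjusted p of 0.0374, and edgeR with the Y-linked level as a term gave 0.0338 at a log2 fold change of -1.10, the only setting in which a member passed both thresholds. The log2 fold change was -0.75 in the 4 libraries without Y-linked reads and ran from -1.33 to -0.68 with each library left out. Its relative *Acox3* differed less, with a log2 fold change of 0.066 (95% interval -0.35 to 0.48). That of *Acox2* was -0.17, but at means of 0.77 and 0.68 CPM its 95% interval (-1.29 to 0.96) includes the *Acoxl* value.

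*Scp2*, on chromosome 4 of mm10 from 108043830 to 108118547, encodes both a peroxisomal thiolase for branched chains and sterol carrier protein 2. *Scp2* had 464, 453 and 470.3 CPM in the AT2CTRL libraries and 364, 328 and 267 CPM in the AT2CAB libraries, again with no overlap (log2 fold change -0.53, standard error 0.14, adjusted p = 0.287 in edgeR). The difference was -0.38 on the log2 scale in the 4 libraries without Y-linked reads. *Hsd17b4*, the D-bifunctional protein that carries out the middle steps of the peroxisomal cycle, had 229, 270.1 and 224 CPM in AT2CTRL and 204, 191 and 151 CPM in AT2CAB. These groups did not overlap either (log2 fold change -0.41, standard error 0.15, adjusted p = 0.443 in edgeR), and the value was -0.29 in those 4 libraries. Of the transcript of *Scp2*, 32.2% of windows of 100 bases occur base for base in the pseudogene *Scp2-ps2*, so part of its reads could have been lost in counting.

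The other peroxisomal enzymes overlapped between the groups. *Acaa1a*, the peroxisomal 3-ketoacyl-CoA thiolase, was at 221 ± 41.5 and 175 ± 12.6 CPM (SD, n = 3), or -0.33 on the log2 scale (adjusted p = 0.539 in edgeR), and 21.6% of windows of 100 bases of its transcript recur in *Acaa1b*. *Eci2* and *Ech1*, isomerases for unsaturated chains, had log2 fold changes of -0.36 and -0.30, and *Ehhadh*, the L-bifunctional enzyme, of -0.11 (95% interval -0.61 to 0.39). Over the 9 genes of the peroxisomal cycle, 8 were below 0 (51.2% of all genes), 3 were lower at an unadjusted p under 0.05 (5.05% of all genes), and the median was -0.33.

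*Pex11a*, on chromosome 7 of mm10 from 79737264 to 79743025, promotes elongation and division of peroxisomes and was the 1 member with higher values in all AT2CAB libraries. *Pex11a* had 30.04, 27.8 and 30.5 CPM in the AT2CTRL libraries and 35.6, 40.9 and 56.8 CPM in the AT2CAB libraries. AT2CAB replicate 3 was the highest by far (log2 fold change 0.59, standard error 0.18, adjusted p = 0.341 in edgeR). The log2 fold change was 0.43 in the 4 libraries without Y-linked reads and ran from 0.42 to 0.75 with each library left out. The import receptors *Pex5* and *Pex7* and the docking protein *Pex14* were nearly level, with log2 fold changes of 0.024 (95% interval -0.23 to 0.28), -0.13 (-0.39 to 0.13) and -0.098 (-0.35 to 0.16). The membrane transporter *Abcd3* had 515, 642 and 606 CPM in AT2CTRL and 542, 513 and 393 CPM in AT2CAB, and the groups overlapped (log2 fold change -0.28, standard error 0.16, adjusted p = 0.617 in edgeR). In the 4 libraries without Y-linked reads its log2 fold change was -0.21.

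**Figure D3:**
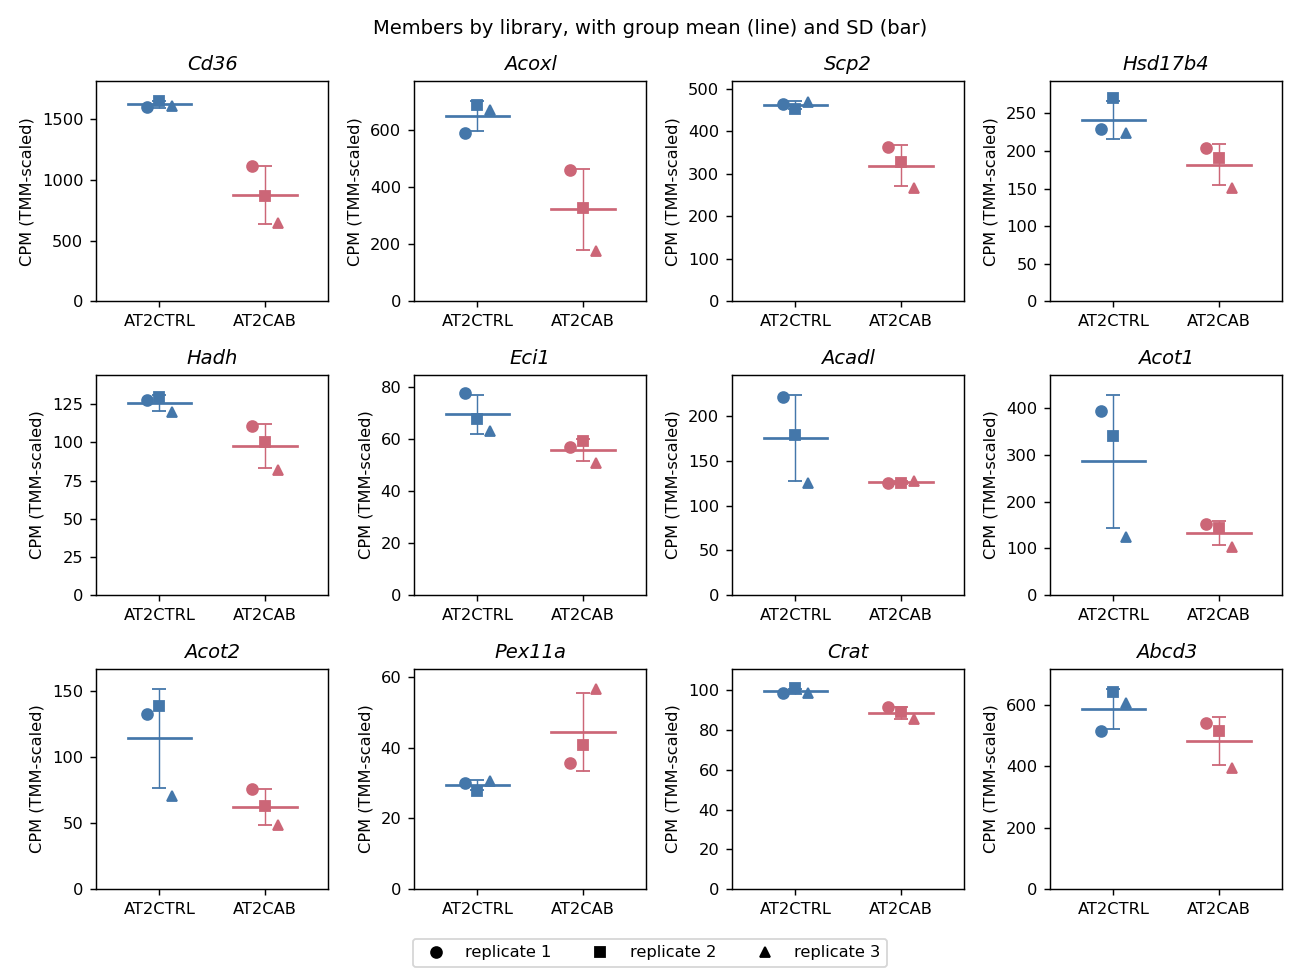
CPM of 12 members in each library (circle, square and triangle for replicates 1, 2 and 3), with the group mean as a line and the SD as a bar, n = 3, and each axis starting at 0. The *Cd36*, *Acoxl* and *Scp2* values of AT2CAB lie below all AT2CTRL values, those of *Pex11a* above, and for *Acot1* and *Acot2* AT2CTRL replicate 3 lies among the AT2CAB libraries.

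All 10 listed enzymes of the mitochondrial cycle had a log2 fold change below 0, against 51.2% of all genes. The values ran from -0.48 to -0.13, with a median of -0.28. For 6 of the 10 every AT2CAB value lay below every AT2CTRL value, against 10.1% of all genes. *Hadh*, the short-chain 3-hydroxyacyl-CoA dehydrogenase, had 128, 129.96 and 120.05 CPM in AT2CTRL and 110.5, 100.1 and 81.9 CPM in AT2CAB, without overlap (log2 fold change -0.37, standard error 0.13, adjusted p = 0.429 in edgeR). For the enoyl-CoA isomerase *Eci1* the values were 77.7, 67.6 and 63.1 CPM against 56.98, 59.3 and 50.97 CPM, also without overlap (log2 fold change -0.32, standard error 0.12, adjusted p = 0.464 in edgeR). Without the libraries with Y-linked reads the log2 fold changes were smaller, -0.22 for *Hadh* and -0.13 for *Eci1*. *Acadl*, the long-chain acyl-CoA dehydrogenase, differed in another way. *Acadl* had 222, 179.7 and 126 CPM in the AT2CTRL libraries and 125, 126 and 128 CPM in the AT2CAB libraries. AT2CTRL replicate 3 lay among the AT2CAB values (log2 fold change -0.48, standard error 0.19, adjusted p = 0.485 in edgeR), and the log2 fold change was -0.25 in the 4 libraries without Y-linked reads.

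The medium- and short-chain dehydrogenases *Acadm* and *Acads* also kept the groups apart, by small amounts. *Acadm* had 72.5, 65.8 and 70.1 CPM in the AT2CTRL libraries and 60.8, 62.5 and 47.6 CPM in the AT2CAB libraries (log2 fold change -0.29, adjusted p = 0.534 in edgeR). For *Acads* there were 36.9, 34.1 and 31.7 CPM and 31.04, 28.6 and 27.6 CPM (log2 fold change -0.24, adjusted p = 0.564 in edgeR). Both were also smaller without the libraries with Y-linked reads, at -0.11 and -0.11. The subunits of the trifunctional protein differed little, and their groups were apart by a narrow margin. *Hadha* had 199, 212 and 201 CPM in AT2CTRL and 194, 191 and 176 CPM in AT2CAB, and *Hadhb* had 48.1, 40.8 and 41.01 CPM and 40.6, 39.4 and 32.9 CPM. Their log2 fold changes were -0.13 (95% interval -0.38 to 0.12) and -0.20 (95% interval -0.50 to 0.095), and that of *Hadha* was -0.07 in the 4 libraries without Y-linked reads. That of *Hadha* turned to 0.0018 with library size as the only scaling and that of *Hadhb* to 0.0012 in the same 4 libraries. Of the *Hadhb* transcript, 52.8% of windows of 100 bases recur in 2 other GENCODE genes.

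*Acaa2*, the last enzyme of the mitochondrial cycle, had 220.4, 185 and 134 CPM in AT2CTRL and 141, 137 and 161 CPM in AT2CAB, a difference within the spread of AT2CTRL (log2 fold change -0.29, standard error 0.18, adjusted p = 0.643 in edgeR, -0.16 without the libraries with Y-linked reads). The very long-chain dehydrogenase *Acadvl* (-0.19) and the 2,4-dienoyl-CoA reductase *Decr1* (-0.28) overlapped between the groups on the same log2 scale. Electron transfer from these dehydrogenases runs through the flavoprotein ETF and its oxidoreductase. *Etfb* had 135, 112 and 104 CPM in AT2CTRL and 105, 104 and 108 CPM in AT2CAB, and its log2 fold change was -0.15 (95% interval -0.43 to 0.14). Of the *Etfb* transcript, 65.2% of windows of 100 bases recur in *Gm45233*. *Etfa* had 65.9, 61.2 and 63.2 CPM and 57.2, 58.5 and 51.3 CPM, without overlap but only -0.19 apart on the log2 scale (adjusted p = 0.609 in edgeR), and *Etfdh* was at -0.19. Without the libraries with Y-linked reads, *Etfb* was at -0.015 and *Etfa* at -0.073.

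In the carnitine shuttle 5 of 5 tested members were below 0 (51.2% of all genes), with a median of -0.24. None had an unadjusted p under 0.05. *Cpt1a*, the gatekeeper of entry into mitochondria, had 129.7, 173 and 106 CPM in AT2CTRL and 130.2, 115 and 101 CPM in AT2CAB, with groups that overlapped in part (log2 fold change -0.24, standard error 0.19, adjusted p = 0.706 in edgeR). Carnitine acetyltransferase, *Crat*, was tight within each group. *Crat* had 98.8, 101 and 98.8 CPM in the AT2CTRL libraries and 91.5, 88.95 and 85.6 CPM in the AT2CAB libraries. The groups did not overlap, and the log2 fold change was -0.17 (95% interval -0.39 to 0.058, adjusted p = 0.624 in edgeR). Without the libraries with Y-linked reads the log2 fold changes of *Cpt1a* and *Crat* were -0.15 and -0.11. *Cpt2*, the carrier *Slc25a20* and the peroxisomal *Crot* had log2 fold changes of -0.28, -0.31 and -0.16.

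*Acot1* and *Acot2* encode a cytosolic and a mitochondrial thioesterase that free fatty acids from CoA, and they lie next to each other on chromosome 12. *Acot1* had 394, 341 and 125 CPM in the AT2CTRL libraries and 153, 145 and 104 CPM in the AT2CAB libraries. *Acot2* was lower, with 133, 139 and 70.8 CPM and 76.01, 62.9 and 48.5 CPM. In both genes AT2CTRL replicates 1 and 2 were high and replicate 3 fell among the AT2CAB libraries. The log2 fold change of *Acot1* was -1.10 (standard error 0.38, adjusted p = 0.416 in edgeR), -1.46 without AT2CTRL replicate 3 and -0.61 in the 4 libraries without Y-linked reads. That of *Acot2* was -0.87 (standard error 0.27, adjusted p = 0.355 in edgeR), -1.13 and -0.56 in these settings. In their transcripts 21.9% and 17.1% of windows of 100 bases are shared with another *Acot* gene, so reads could have been split between them or lost.

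Of the regulators, *Pdk4*, the kinase that shuts off pyruvate dehydrogenase when fatty acids are burned, had 10.1, 14.4 and 5.14 CPM in AT2CTRL and 5.87, 4.03 and 9.37 CPM in AT2CAB. AT2CTRL replicate 3 was again the lowest of its group, and the difference was within the spread (log2 fold change -0.61, standard error 0.41, adjusted p = 0.665 in edgeR). The log2 fold change was -0.94 in the 4 libraries without Y-linked reads, -0.24 without AT2CTRL replicate 2 and -0.96 without AT2CAB replicate 3. *Ppargc1a*, a coactivator of mitochondrial genes, was at 14.6 ± 1.74 and 12.8 ± 2.23 CPM (SD, n = 3), with a log2 fold change of -0.19 and a 95% interval of -0.58 to 0.21.

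The libraries within a group also differed. Against the mean of the AT2CTRL group, 26 of 37 members were below it in AT2CTRL replicate 3, 13 in replicate 1 and 12 in replicate 2, while in AT2CAB replicates 1, 2 and 3 there were 31, 35 and 33. The median distance was -0.40 on the log2 scale in AT2CAB replicate 3 and -0.19 and -0.23 in replicates 1 and 2. Within AT2CAB, replicate 3 had the lowest value for 26 of 37 members (70.3%, against 41.3% of all genes). The same library had the highest *Id1* and *Id3* of all, with 411 and 545 CPM, against 124 and 179 CPM in AT2CAB replicate 1 and 177 and 247 CPM in AT2CAB replicate 2. It also carried the Y-linked reads, and with 3 libraries in the group these features cannot be told apart.

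**Figure D4:**
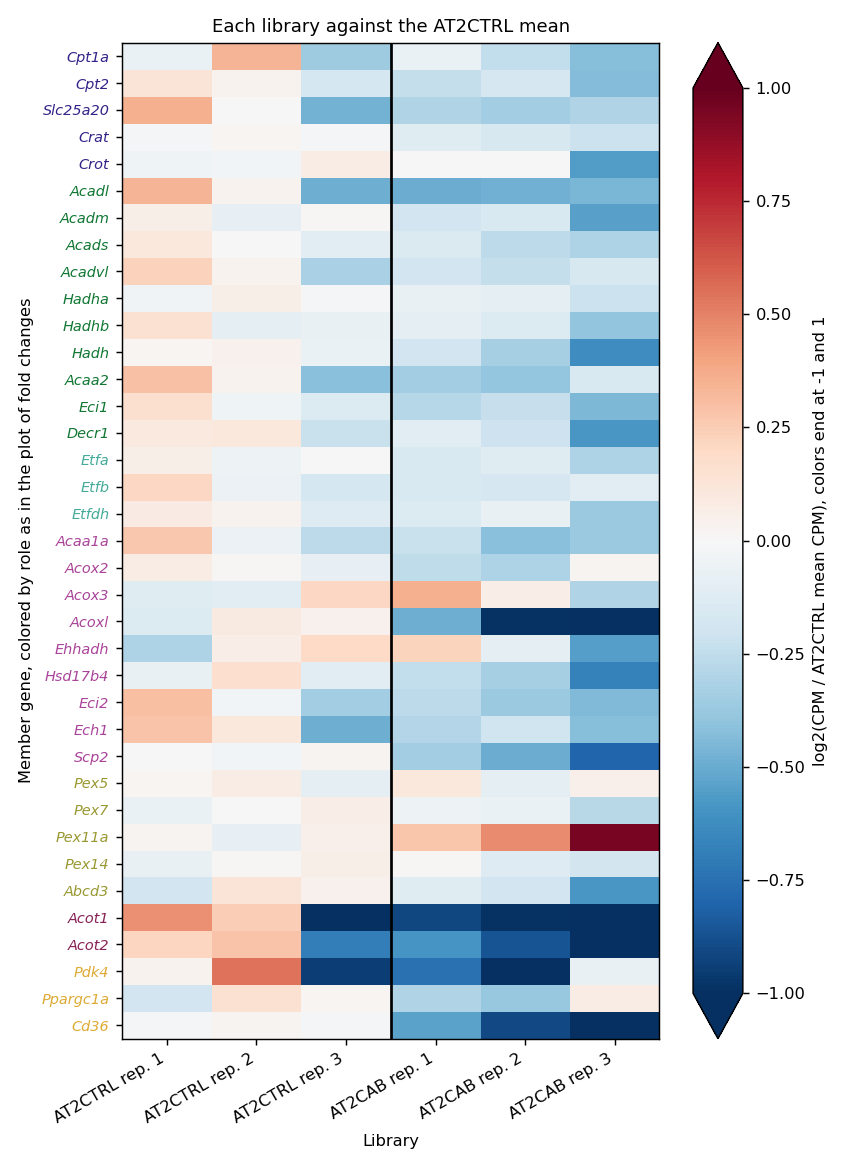
Log2 ratio of each library's CPM to the AT2CTRL mean for the 37 tested members, colors ending at -1 and 1. Blue prevails in the AT2CAB libraries, most in replicate 3 (median -0.40), and AT2CTRL replicate 3 is blue in 26 of 37 members, with *Acot1* among the darkest.

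Most markers of AT2 identity lay on the same side as the members, with none called. Of 10 AT2 markers, 9 had a log2 fold change below 0 (51.2% of all genes), and the median was -0.30. For 5 the groups did not overlap and AT2CAB was lower (10.1% of all genes). The other 5 overlapped, among them those with the highest levels, *Sftpc* (-0.15) and *Sftpb* (0.013). The sum of 10 mesenchymal markers ranged from 178 to 242 CPM in AT2CTRL and from 279 to 373 CPM in AT2CAB. Above 0 were 10 of 10 (48.8% of all genes). The sum of 10 AT1 markers ranged from 2904 to 3770 CPM and from 3219 to 3755 CPM. Of these, 8 of 10 were above 0 (48.8% of all genes), with a median of 0.24. The 1 AT1 marker without overlap between the groups was *Aqp5*, which was lower (means 467 and 324 CPM, log2 fold change -0.53). Airway markers summed to between 621 and 829 CPM and between 601 and 817 CPM, and the basal cell marker *Krt5* was at 0 in all 6 libraries. Without overlap between the groups, *Cyp2f2* was lower (means 193 and 133 CPM, log2 fold change -0.53) and *Foxj1* higher (4.12 and 6.27 CPM). Adipocyte markers summed to at most 10.4 CPM in any library, with *Adipoq* at 0 in AT2CTRL, and markers of striated muscle to between 165 and 267 CPM in AT2CTRL and between 130 and 234 CPM in AT2CAB. Most of the muscle sum was *Myh7* (means 185 and 139.7 CPM), followed by *Myh6* (28.6 and 22.1 CPM, without overlap between the groups). *Ryr2* (11.1 and 9.3 CPM), *Actc1* (2.88 and 4.25 CPM), *Tnni3* (1.17 and 1.32 CPM) and *Nppa* (0.99 and 1.27 CPM) were lower. *Tnnt2*, *Myl7*, *Ckm* and *Acta1* averaged under 1 CPM in both groups. The part of these cells in the results was not tested.

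Other genes of both organelles were read from a second list. Of 12 tested further peroxins, 8 were below 0 (51.2% of all genes) with a median of -0.094. Only 1 was lower at an unadjusted p under 0.05 (5.05% of all genes). This was *Pex3*, which anchors PEX19 for membrane protein insertion. It had 36.5, 36.4 and 36.7 CPM in AT2CTRL and 30.9, 25.4 and 21.4 CPM in AT2CAB (log2 fold change -0.50, standard error 0.15, adjusted p = 0.348 in edgeR), while *Pex19* itself was level (0.0048, 95% interval -0.23 to 0.23). Of 29 further peroxisomal enzymes and transporters, 21 were below 0 (51.2% of all genes) with a median of -0.099. *Cat*, catalase, which removes the hydrogen peroxide made by the oxidases, had 943, 1032 and 992 CPM and 763, 633 and 459 CPM, without overlap (log2 fold change -0.68, standard error 0.19, adjusted p = 0.311 in edgeR). The membrane channel *Pxmp2* stood at -0.54 on the log2 scale (adjusted p = 0.352 in edgeR). The racemase *Amacr*, which prepares branched chains, was the 1 gene with an unadjusted p under 0.05 on the higher side (0.39, adjusted p = 0.482 in edgeR).

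Of 24 further genes of mitochondrial fatty acid oxidation, 18 were below 0 (51.2% of all genes) with a median of -0.11. At an unadjusted p under 0.05, 3 were lower (5.05% of all genes). *Acsl4*, which activates arachidonic acid, had 704, 997 and 1009.8 CPM in AT2CTRL and 699.7, 603 and 407 CPM in AT2CAB, without overlap (log2 fold change -0.67, standard error 0.23, adjusted p = 0.416 in edgeR). In the 4 libraries without Y-linked reads its adjusted p was 0.0498 in edgeR at a log2 fold change of -0.59. *Pcca*, of propionyl-CoA carboxylase, and *Hsd17b10* were at -0.57 and -0.47 (adjusted p = 0.383 and 0.446 in edgeR). The other synthetases *Acsl5* (-0.23, 95% interval -0.56 to 0.098) and *Acsl1* (0.07, -0.28 to 0.42) overlapped between the groups. No gene of this second list was called by edgeR (0 of 90 tested), DESeq2 or limma-voom, and over the whole list 9 (10%) were lower at an unadjusted p under 0.05, against 5.05% of all genes.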

How the data were processed

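Poly(A) RNA of sorted AT2 cells was sequenced as paired reads from 3 AT2CTRL and 3 AT2CAB samples, grouped by the sample labels. The authors trimmed tails and adaptors, aligned to mm10 with Hisat2, removed duplicates and deposited raw counts on exons from featureCounts 1.5.3, without strand, leaving out reads on overlapping genes. Gene length is a deposited column of the same table. No option for pairs stands in the header and 56.9% to 60.8% of low counts (1 to 20) were even, so mates seem to be counted singly. Halving and rounding the counts left 38 genes called higher, 2 lower and 9 members lower at an unadjusted p under 0.05. A count of 3 corresponds to between 0.0976 and 0.138 CPM.

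Groups were compared with edgeR 4.0.16 in R 4.3.3 (TMM, filterByExpr with its minimum of 10, quasi-likelihood F-test) and p-values were adjusted by Benjamini-Hochberg over 16723 genes. The standard error is the log2 fold change divided by the root of F. A call needed adjusted p under 0.05 together with more than 2-fold, or 1 on the log2 scale. DESeq2 1.42.0, named in the methods, and limma 3.58.1 were alternatives. All were checked on simulated counts with changes larger than those of the members, so the check does not cover differences of the members' size. Members and lists were chosen with earlier results of these data known. Values by library cover members with an unadjusted p under 0.05, without overlap, over 0.5 in log2 size, highest of their role or untested. From the second list, up to 10 genes with an unadjusted p under 0.05 are named, with values by library for only part of them. *Acsl1*, *Acsl5*, *Pex19* and *Ppara* were added after their values were seen. Libraries of a group differed by more than counting noise. Nothing in the labels says that a replicate number marks a shared batch. Shared windows of 100 bases were counted in GENCODE M21 transcripts.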

Additional observations from a re-analysis of the deposited data

How the results depend on the processing

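The number of genes called higher (38) was 119 with DESeq2, 25 with limma-voom and 109 with the Y-linked level as a term, and from 6 to 59 with one library left out. The number called lower (2) was 1 with upper-quartile scaling, library size only, a minimum count of 50, limma-voom and age as a term. It was 5 without a filter, also 5 with a replicate block, 8 in the 4 libraries without Y-linked reads, 25 with DESeq2 and 34 with the Y-linked level as a term, and from 0 to 4 with one library left out. No member was called in any of these except *Acoxl* with the Y-linked level as a term (1 lower, from 0), and 0 were called with one library left out. Members lower at an unadjusted p under 0.05 numbered 9 in the main fit, where 5.05% of all genes were lower. They came to 5 with library size only (background 1.91%) and to 13 with the Y-linked level as a term (background 10.7%). With one library left out there were from 4 to 16 (background from 2.17% to 6.76%). No gene of the second list was called more than 2-fold in any setting. With the Y-linked level as a term, adjusted p in edgeR was 0.0259 for *Cd36*, 0.0424 for *Scp2*, 0.0187 for *Acsl4*, 0.0347 for *Pcca* and 0.0363 for *Cat*, all under 2-fold. The sign turned for *Hadha* with library size only (0.0018) and for *Hadhb* in the 4 libraries without Y-linked reads (0.0012), and for no other member with values by library in any setting run. With the replicate number as a block, 7 members were lower at an unadjusted p under 0.05 (background 3.35%) and none was called. Deviations of same-numbered libraries from their group means correlated at -0.24, 0.20 and -0.53 across genes. These correlations cannot show whether same-numbered libraries shared a batch, and the labels name none. The cause of these changes was not tested.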

Other observations

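The remaining 25 genes of the second list were regulators and known PPAR targets. Of these, 17 were below 0 (51.2% of all genes), with a median log2 fold change of -0.097. None was called. *Plin2*, the coat protein of lipid droplets, had 218, 257 and 178 CPM in AT2CTRL and 171, 139 and 107 CPM in AT2CAB, without overlap (log2 fold change -0.65, adjusted p = 0.364 in edgeR). *Angptl4*, a secreted inhibitor of lipoprotein lipase, had 35.1, 29.2 and 10.4 CPM and 15.5, 10.7 and 11.7 CPM (log2 fold change -0.98, adjusted p = 0.475 in edgeR). In *Angptl4*, as in *Acot1*, *Acot2* and *Pdk4*, AT2CTRL replicate 3 was far below the other AT2CTRL libraries and near the AT2CAB level. The kinase *Pdk1* was at -0.50 (adjusted p = 0.455 in edgeR). *Ppara* itself had 25.2, 30.3 and 35.8 CPM in AT2CTRL and 31.5, 25.8 and 23.1 CPM in AT2CAB, with overlapping groups and a log2 fold change of -0.18 (95% interval -0.58 to 0.21).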
